A study of Mus musculus with 11 samples.

Results

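Mitochondrial ribosomal protein genes were followed in mouse liver after induction of YAP. The 75 genes are those of a table of 20893 genes whose symbol begins with Mrpl or Mrps and a digit, and 47 of them carry large subunit (Mrpl) and 28 small subunit (Mrps) symbols. A level of at least 0.5 eRPKM in at least 3 of the 11 libraries was also asked for, and all 75 genes passed it. The eRPKM divides the reads of a gene by its exon length and by the size of the library, so levels can be roughly compared between genes. A limit to this is given below for Alb.

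Each library came from the whole liver of one C57BL/6 mouse, and every mouse carried ROSA26-rtTA-IRES-EGFP, a doxycycline-dependent transactivator that becomes active after Cre recombination. The 4 controls, WT for the YAP transgene, ate doxycycline food for 7 days. The other mice carried tetYAP as well and ate doxycycline food for 3 days (4 livers) or 7 days (3 livers). By the study's methods the tetYAP transgene encodes a mutant YAP that escapes inhibition by the Hippo pathway, and Alb-CRE confines the transactivator to cells that have expressed albumin, chiefly hepatocytes. The labels mention neither Alb-CRE nor the age of the mice, and the analysis was of whole tissue, in which a lower number of cells of one type and less RNA per cell cannot be told apart.

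Mitochondria translate the few proteins encoded in their own DNA, all of them core subunits of the respiratory chain and ATP synthase, on ribosomes of their own. All proteins of these ribosomes are encoded in the nucleus, made in the cytosol and imported, and they meet ribosomal RNA transcribed inside the organelle. Part of them descend from bacterial ribosomal proteins (systematic names beginning with u or b, as in uS10m), and the others exist only in mitochondria (names beginning with m). The liver is rich in mitochondria, and a growing liver has to make new ones.

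Depth ranged from 1251396 to 5941357 reads on genes, as recovered from the deposited values, with medians of 3152456 for controls, 3652719 at 3 days and 5356541 at 7 days. The 75 genes together took 0.275% to 0.397% of these reads, and a single member had between 8 and 616 reads in a library. The hepatocyte gene Alb had 2417 to 3102 reads in every library, a 1.28-fold range against a 4.75-fold range in depth, so the eRPKM of Alb was lower in deeper libraries, and other abundant genes were not examined for this. Over the 75 members, a gene's level was also compared with its departure in 1 liver from the other livers. Spearman's rho was 0.371 in control liver 4, the shallowest library, and -0.228, -0.284 and -0.155 in 7-day livers 1 to 3. By Xist and the Y-linked Ddx3y, control livers 2 and 3 and 3-day livers 3 and 4 were from females, control livers 1 and 4 and 3-day livers 1 and 2 from males, and all 3 livers at 7 days from females. The labels of 3-day livers 1 and 4 and of 7-day liver 2 carry a suffix MF, which is not explained. The YAP targets Cyr61 and Ctgf rose at 7 days by 3.27 and 3.49 on the log2 scale (limma with Benjamini-Hochberg adjustment, adjusted p = 8e-06 and 1.2e-05), and Yap1 itself stood at 0.03 (adjusted p = 0.917). At 3 days Yap1, Cyr61, Ctgf and the further target Ankrd1 had values from -0.94 to 1.99. None of these passed the thresholds given below, where 0.0421% of all tested genes did.

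The first question was how strongly these genes are expressed in the control liver and how evenly. Their mean level in controls ran from 3.45 to 85.5 eRPKM with a median of 23.3, and 64 of 75 lay between 10 and 60 eRPKM. Large subunit genes had a median level of 30.7 eRPKM and small subunit genes one of 22.2. The highest large subunit levels over all livers were those of Mrpl30 (uL30m), Mrpl20 (bL20m) and Mrpl18 (uL18m). Control livers 1 to 4 had 81.1, 83.2, 72.3 and 106 eRPKM of Mrpl30, and 64.8, 67.4, 73.9 and 94.5 of Mrpl20. Mrpl18 stood at 72.4, 74.8, 65.6 and 61.5. For Mrpl30 and Mrpl20 the shallowest library, control liver 4, was the highest of the controls, and for Mrpl18 it was the lowest.

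Among small subunit genes the highest levels were those of Mrps21 (bS21m), Mrps16 (bS16m) and Mrps24 (uS3m), with control means of 64.9 (SD 19.6, n = 4), 63.1 (SD 9.66, n = 4) and 54 eRPKM (SD 9.75, n = 4). At the other end, Mrps25 (mS25) had a control mean of 3.45 (SD 1.04, n = 4) and Mrpl13 (uL13m), the lowest large subunit gene over all 11 livers though not in controls, one of 7.1 (SD 1.03, n = 4). Mrps25 was the member closest to the filter, and its lowest library still held 15 reads. Over livers of one group the coefficient of variation of a member had a median of 16.6% in controls, 20.6% at 3 days and 7.69% at 7 days, against 24.4%, 27.2% and 13.5% for all tested genes. Mrpl12 (bL12m, part of the stalk that recruits translation factors, chosen here for its spread) varied most among controls, with 40.4, 47.6, 99.4 and 31.1 eRPKM, and least at 7 days, with 76.5, 76.7 and 77.2.

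The order of the levels was kept after induction. Over the 75 genes the Spearman correlation of mean levels was 0.965 between control and 3 days and 0.917 between control and 7 days, as a description over genes measured in the same libraries.

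**Figure D1:**
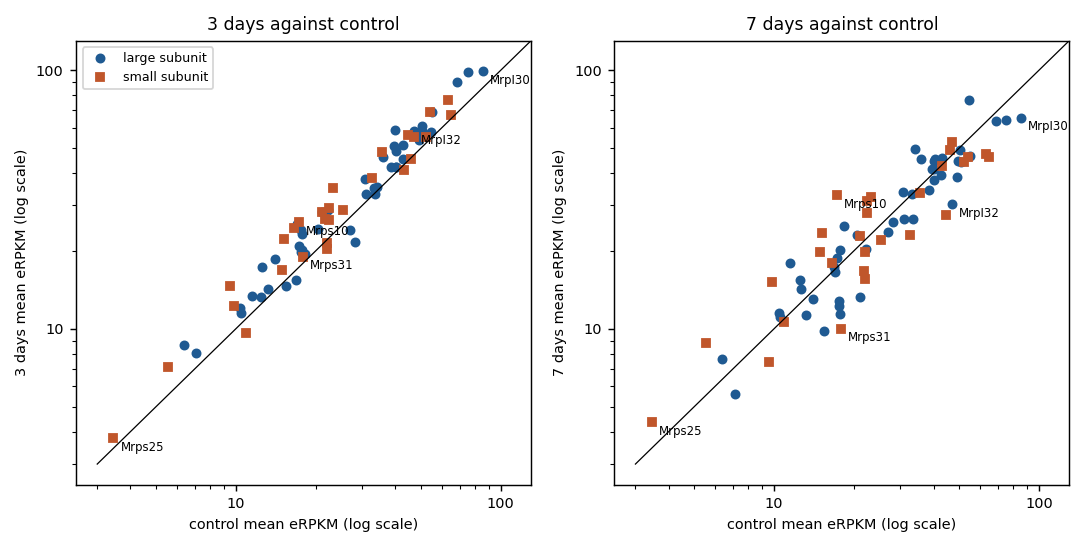
Mean eRPKM of each of the 75 genes at 3 days (left) and 7 days (right) against its control mean, both axes on a log scale, with circles for the large and squares for the small subunit and the line of equal level. At 3 days most points lie slightly above the line (65 of 75 positive log2 differences), and at 7 days they lie on both sides of it (35 of 75 positive).

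The first comparison with control, at 3 days of induction, addressed the early response. No member was called, where a call means an adjusted p under 0.01 by limma over all 14244 tested genes and an absolute log2 fold change above 0.5, and 0.0421% of all tested genes were called. With the limit on the adjusted p raised to 0.05 and none on the fold, no member passed either, against 0.281% of all genes higher and 0.00702% lower, and at an unadjusted p under 0.05 there were 11 of 75 members beside 12.1% of all genes. Most values lay above control without passing the test. The difference from control was positive for 65 of 75 members and for 7447 of 14244 tested genes. Its median was 0.20 on the log2 scale for the large subunit, 0.24 for the small subunit and 0.02 for all tested genes. Under the other scalings, covariates and filters these subunit medians ran from 0.09 to 0.21 and from 0.10 to 0.24. For 71 of 75 members the 95% interval of the difference lay within 1 log2 unit on either side of 0.

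Liver by liver, the median member stood above the control mean by 0.18, 0.29, 0.03 and 0.40 on the log2 scale in 3-day livers 1 to 4, and at 0.03, 0.17, -0.08 and -0.12 in control livers 1 to 4. Livers 2 and 4 at 3 days were above all controls, liver 1 was marginally so, and liver 3 lay among them. The groups therefore overlapped.

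The largest 3-day values belonged to Mrps10 (uS10m) in the small subunit, at 0.64 (SE 0.23, limma adjusted p = 0.29), and Mrpl21 (bL21m) in the large subunit, at 0.55 (SE 0.30, adjusted p = 0.485). The smallest were those of Mrpl48 (mL48) at -0.34 (SE 0.21, adjusted p = 0.533) and Mrps9 (uS9m) at -0.12 (SE 0.20, adjusted p = 0.856). Mrpl21 had 15.8, 16.9, 12.6 and 5.12 eRPKM in the controls and 14.7, 19.4, 15.4 and 19.6 at 3 days. Its low value was that of control liver 4, where it had 8 reads, and the groups overlapped.

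In 4 members, Mrpl18, Mrpl19, Mrps26 and Mrps34, all 3-day livers lay above all controls, and in no member did all lie below them, where 3.38% and 2.25% of all tested genes showed such complete separation. Of the 4, Mrps26 had a difference of 0.58 (SE 0.18, limma adjusted p = 0.2), and Mrpl18 had the smallest standard error. Mrpl18 stood at 98, 89.2, 81.1 and 90.4 eRPKM in 3-day livers 1 to 4, all above the highest control at 74.8, and its log2 fold change was 0.39 (SE 0.12, limma adjusted p = 0.217). The exact permutation test gave p = 0.0286, the smallest that 4 against 4 livers allow. At 7 days Mrpl18 had 66.1, 57.5 and 67.8 eRPKM, with livers 1 and 3 among the controls and liver 2 below the lowest of them. The exons of Mrpl18 overlap those of Tcp1 on the opposite strand, and reads of the pair cannot be told apart without strand.

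**Figure D2:**
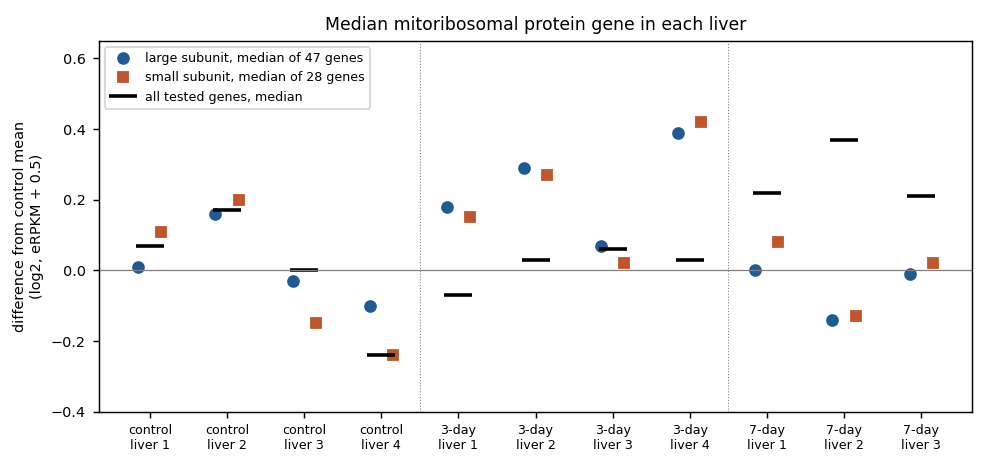
Median difference from the control mean, in log2 units of eRPKM + 0.5, over the 47 large subunit genes (circles), the 28 small subunit genes (squares) and all 14244 tested genes (bars) in each of the 11 livers. In no liver do the subunits differ by more than 0.14, at 3 days the large subunit stands above all controls in 3 of 4 livers and the small subunit in 2 of 4, and at 7 days both subunits lie between -0.14 and 0.08 while the median of all genes lies at 0.21 to 0.37.

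After 7 days, 1 member was called higher, Mrps10, and 1 lower, Mrps31, both of the small subunit. That is 2.67% of the members, while 23.8% of all tested genes were called, 18% higher and 5.77% lower. No gene of the large subunit was called. At an unadjusted p under 0.05 there were 18 of 75 members, beside 47.3% of all tested genes. The median log2 fold change was -0.07 for the large subunit and -0.00 for the small subunit, against 0.26 for all tested genes, and the members' values ran from -0.80 to 0.98. The 95% interval lay within 1 log2 unit on either side of 0 for 61 of 75 members.

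The position of the family relative to 0 depended on the scaling. Median-ratio size factors put the median of all tested genes at 0.02 and that of the subunits at -0.34 (large) and -0.27 (small), with 0 members called higher and 7 lower (9.33% of members, beside 8.99% of all tested genes lower). Quantile normalization put the subunit medians at -0.19 and -0.19 and that of all genes at -0.08, with 0 called higher and 11 lower (14.7% of members, beside 12.8% of all tested genes lower). Under each of these scalings the median member lay below the median of all genes. The values that follow are on the deposited scaling.

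With the limit on the adjusted p raised to 0.05 and none on the fold, 7 members were higher and 5 lower at 7 days, beside 27.9% and 9.98% of all tested genes. The 7, chosen here after their values were seen, were Mrps10, Mrpl4, Mrps34, Mrps36, Mrps27, Mrpl16 and Mrps23, and the 5 were Mrps31, Mrpl32, Mrpl35, Mrpl1 and Mrpl15. Higher and lower members occurred in both subunits. In 11 members all 7-day livers lay above all controls, and in 14 all lay below, where 36.7% and 13.3% of all tested genes did so.

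**Figure D3:**
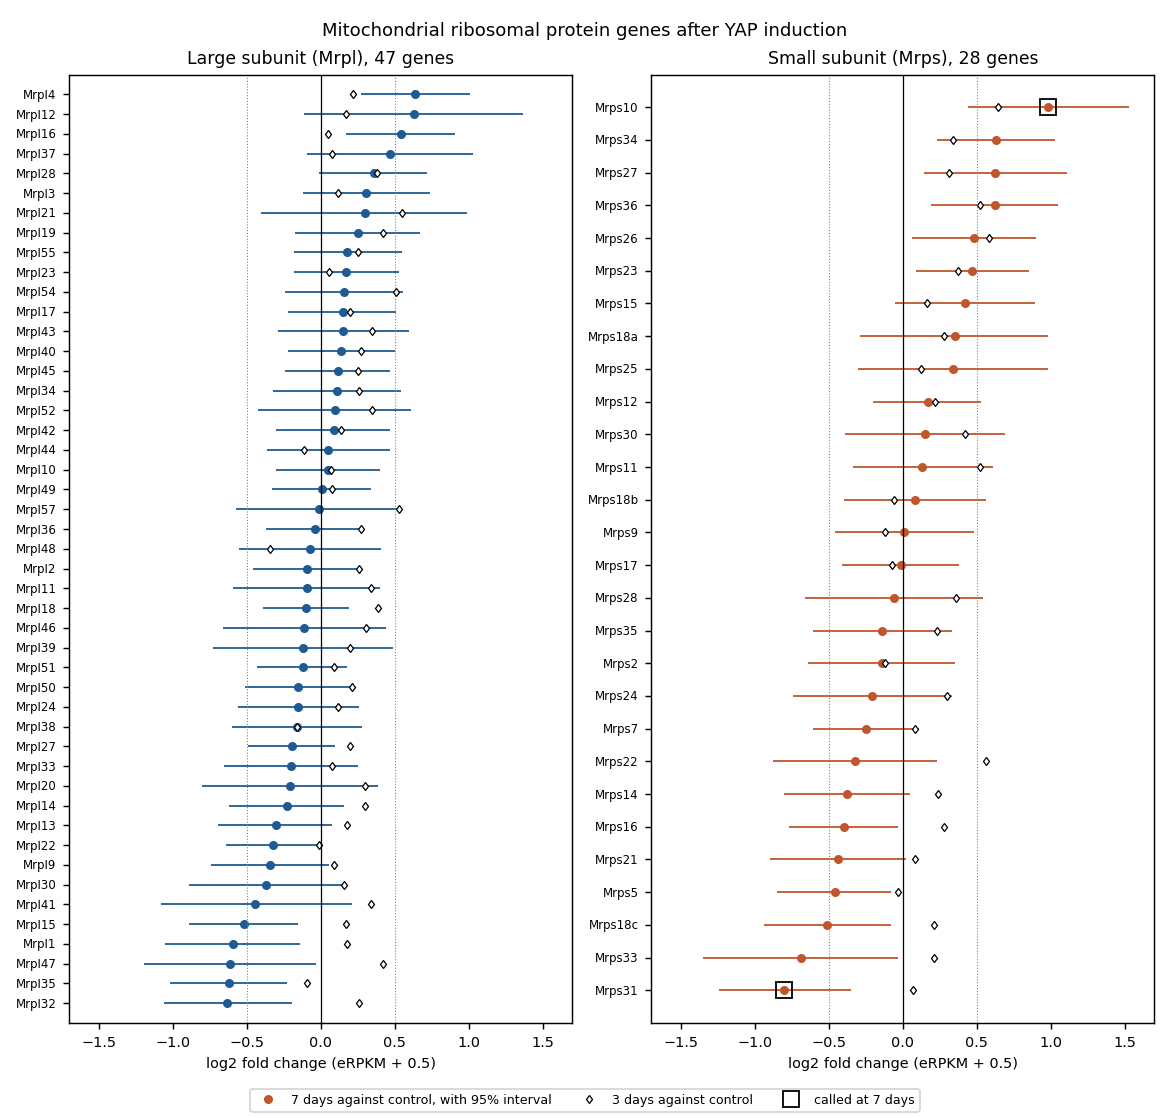
Log2 fold change of eRPKM + 0.5 for each of the 75 genes, large subunit left and small subunit right, ordered by the 7-day value. Filled points with bars are 7 days against control with the 95% interval, open diamonds are 3 days against control, dotted lines mark 0.5 on either side, and black squares mark the called genes, Mrps10 and Mrps31.

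Mrps10 (chromosome 17, 47505836 to 47518366, plus strand, mm9), the counterpart of bacterial S10 in the head of the small subunit, had 12.4, 19.3, 26.3 and 11.2 eRPKM in control livers 1 to 4. The 3-day livers had 21.3, 25.1, 31.5 and 25.7, and the 7-day livers 33.7, 30.5 and 34.2. All livers at 7 days were above all controls, and the 3-day livers lay between, overlapping with both groups. The 7-day log2 fold change was 0.98 (SE 0.25, 95% interval 0.44 to 1.53, limma adjusted p = 0.00857), and the exact permutation test of this gene gave p = 0.0571. The lowest controls, livers 1 and 4, were the male ones. Among female livers the change was 0.53 and did not pass (adjusted p = 0.0679), and with log2 reads on genes as a covariate it was 0.77 (adjusted p = 0.107). Over all alternatives its adjusted p ran from 0.00134 to 0.107.

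Mrps31 (mS31, chromosome 8, 23521812 to 23540137, plus strand), a small subunit protein with no bacterial counterpart, had 20.4, 20.6, 15.5 and 15.2 eRPKM in controls and 22, 19.5, 13.1 and 21.6 at 3 days. At 7 days it had 10.3, 11.1 and 8.72. The 7-day livers were the lowest of all 11, below the lowest control and the lowest 3-day liver, while the controls and the 3-day livers overlapped. The log2 fold change came to -0.80 against control (SE 0.21, 95% interval -1.24 to -0.35, limma adjusted p = 0.00867) and -0.87 against 3 days (SE 0.21, adjusted p = 0.00653). The exact permutation test against control gave p = 0.0286, the smallest possible with 4 against 3 livers. Among female livers the change was equally large, -0.81, but with an adjusted p of 0.0433 it was not called.

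The step from 3 to 7 days was tested in the same fit. No member was called higher and 4 were called lower, 5.33% of the members beside 19.3% of all tested genes, of which 14% were higher and 5.31% lower. With all livers, the share of members that fell is close to that of all genes. The median was -0.27 for the large and -0.19 for the small subunit, against 0.26 for all tested genes. Besides Mrps31, the genes that fell were Mrpl32, Mrpl15 and Mrps16. At an adjusted p under 0.05 there were 1 higher and 15 lower members, beside 25.4% and 10.3% of all tested genes. At the stricter limit the number of falls was 17 without 3-day liver 3 (22.7% of members, beside 7.47% of all tested genes lower), 1 without 3-day liver 1 or 2, 2 without control liver 1 or 2, and 0 without 3-day liver 4 or any one of the 7-day livers.

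Mrpl32 (bL32m, chromosome 13, 14702568 to 14705304, minus strand), which the mitochondrial m-AAA protease trims before it joins the large subunit, had 46.8, 49.3, 46 and 45.7 eRPKM in controls, the closest agreement of any member (coefficient of variation 3.48%). The 3-day livers had 77.6, 48.9, 39.6 and 65.7, and the 7-day livers 31.3, 33.3 and 26.3. At 3 days livers 1 and 4, which carry the suffix MF, were above the controls and liver 3 was below them. At 7 days all livers were below every other liver. The log2 fold change between 3 and 7 days was -0.88 (SE 0.20, limma adjusted p = 0.00531), and against control it was -0.63 (SE 0.20, adjusted p = 0.0264), which missed the threshold. With the suffix MF as a covariate these changes were -0.80 and -0.79 (limma adjusted p = 0.00166 and 0.00165).

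Mrpl15 (uL15m, chromosome 1, 4763287 to 4775820, minus strand) had 16.1, 19.6, 19.6 and 15.1 eRPKM in controls and 16.8, 20.3, 22.3 and 19.9 at 3 days. It had 13.1, 9.97 and 13.4 at 7 days, below all other livers. Its change from 3 to 7 days was -0.69 (SE 0.17, limma adjusted p = 0.00848).

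Mrps16 (bS16m, chromosome 14, 21210453 to 21212777, minus strand), whose human gene is mutated in a combined respiratory chain deficiency, had 68.2, 73.8, 52.7 and 57.6 eRPKM in controls. It had 88.8, 69.5, 61 and 88 at 3 days and 50.9, 43.2 and 48.1 at 7 days, where it again was below all other livers. The change from 3 to 7 days was -0.68 (SE 0.17, adjusted p = 0.00962), and against control it was -0.40 (SE 0.17, adjusted p = 0.0858). In female livers alone the changes of Mrpl32, Mrpl15, Mrps16 and Mrps31 from 3 to 7 days were -0.75, -0.78, -0.63 and -0.72, and none was called, with 2 livers at 3 days left.

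**Figure D4:**
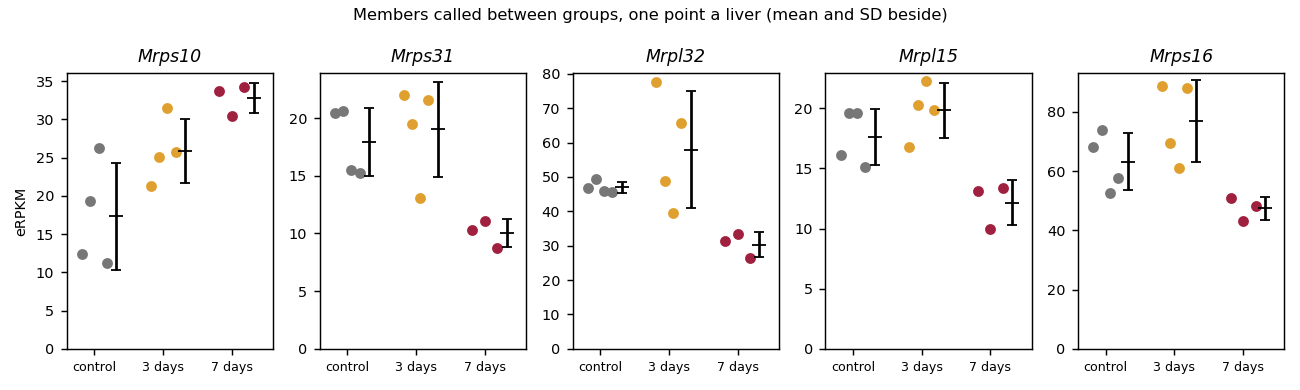
eRPKM of the 5 genes called in any comparison, 1 point a liver for 4 controls, 4 livers at 3 days and 3 at 7 days, with the mean and SD beside each group. Mrps10 is higher in each 7-day liver than in any control, and the other 4 genes are lowest in the 7-day livers.

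The 3 related genes of the S18 family and 2 genes whose symbols are at odds with their place were also read one by one. Mrps18c (bS18m), the small subunit copy closest to the bacterial protein, stood at -0.51 at 7 days (SE 0.20, limma adjusted p = 0.0613). Mrps18b (mS40), also in the small subunit, stood at 0.08 (SE 0.22, adjusted p = 0.799), and Mrps18a, which sits in the large subunit as mL66, at 0.35 (SE 0.29, adjusted p = 0.377). Mrps18c was lower in 2 of 3 livers at 7 days than in every control, with 17.5, 29.1 and 22.7 against 32.7, 33.7, 27.5 and 36.6 eRPKM, while the other copies overlapped between the groups.

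Mrps30, a large subunit protein in known structures (mL65), had 24.1, 24.1, 23.8 and 12.7 eRPKM in controls and 24.9, 23.1 and 20.7 at 7 days, a log2 fold change of 0.15 (SE 0.25, limma adjusted p = 0.657). Mrps36, whose product is now known as a subunit of the 2-oxoglutarate dehydrogenase complex and not of the ribosome, had 15.3, 16.5, 16.9 and 11.9 eRPKM in controls. It had 15.8, 25.8, 26.9 and 20.6 at 3 days and 24.8, 21.6 and 23.7 at 7 days. All 7-day livers were above all controls, with a log2 fold change of 0.62 (SE 0.20, adjusted p = 0.0254), short of the threshold. With Mrps18a and Mrps30 moved to the large subunit and Mrps36 left out, the 7-day medians were -0.04 for the large and -0.06 for the small subunit.

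The subunits did not part from each other in any liver. The ratio of the mean small subunit level to the mean large subunit level lay between 0.864 and 0.9 after 7 days, between 0.871 and 0.924 after 3 days and between 0.811 and 0.928 without induction, so the groups overlapped. Proteins inherited from bacteria had 7-day medians of -0.10 in the large subunit (30 genes, none called) and -0.14 in the small (15 of 16 listed genes in the table, Mrps10 called higher). Proteins found only in mitochondria had medians of 0.01 in the large subunit (17 genes of 19, none called) and 0.21 in the small (10 genes, Mrps31 called lower). Another 5 mitoribosomal proteins without an Mrp symbol, Dap3, Ptcd3, Chchd1, Aurkaip1 and Gadd45gip1, had a 7-day median of -0.42 with none called, and at 3 days all 5 values were positive.

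Genes that act with the mitochondrial ribosome were read from lists of their own. Of 15 translation factors, 1 rose at 7 days, Pdf, the enzyme that removes the formyl group from new mitochondrial proteins. Pdf had 1.91, 2.48, 2.84 and 1.99 eRPKM in controls and 6.14, 6.05 and 9 at 7 days, all above the controls, a log2 fold change of 1.42 (SE 0.28, limma adjusted p = 0.00171). With log2 reads on genes as a covariate and with quantile normalization Pdf was not called. The list's median was -0.03, and with quantile normalization it was -0.56 with 4 genes lower. The elongation factor gene Tufm stood at 0.32 (SE 0.26, adjusted p = 0.368).

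Among 26 of 29 listed assembly and ribosomal RNA factors, 2 rose and 3 fell at 7 days, with a median of 0.07. None was higher among female livers, with log2 Xist or log2 reads as a covariate or with size factors, where 1, 2, 2 and 4 were lower, and the median turned to -0.19 with size factors, -0.07 with log2 reads and -0.43 with quantile normalization. Mpv17l2, which takes part in assembly at the inner membrane, rose by 1.12 (SE 0.27, adjusted p = 0.00604), and Rpusd4, a pseudouridine synthase of the large ribosomal RNA, by 1.14 (SE 0.27, adjusted p = 0.00583). The RNA-binding proteins Lrpprc and Grsf1 fell by 0.80 (SE 0.16, adjusted p = 0.00197) and 0.75 (SE 0.13, adjusted p = 0.00083), and Mterf3, which acts in mitoribosome biogenesis, fell by 0.69 (SE 0.15, adjusted p = 0.0036). Grsf1 had 67.2, 61, 63.1 and 66.5 eRPKM in controls and 41.3, 36 and 36.8 at 7 days, with no overlap.

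Of 10 genes for mitochondrial transcription and DNA upkeep none was called against control at 7 days, with a median of -0.16. Limma-voom and log2 reads as a covariate each gave 1 lower, size factors 2 and quantile normalization 3, with medians of -0.25, -0.36, -0.39 and -0.70. Tfam, which packs mitochondrial DNA and takes part in its transcription, had 30, 29.9, 27 and 21.8 eRPKM in controls. It had 37.8, 34, 29.6 and 41.7 at 3 days and 18.7, 17.8 and 16.2 at 7 days. Its mean fell from 35.8 eRPKM (SD 5.22, n = 4) at 3 days to 17.5 (SD 1.29, n = 3) at 7 days (limma adjusted p = 0.000608), and its value against control was -0.61 (SE 0.16, adjusted p = 0.0108). Tfam lay above the highest control in all 3-day livers but liver 3, and below the lowest control in all 7-day livers. Of 9 regulators 2 rose at 7 days, Myc by 3.09 (SE 0.64, adjusted p = 0.00231) and Pprc1, a relative of the coactivator PGC-1alpha, by 1.29 (SE 0.33, adjusted p = 0.00899). Neither was called among female livers or with log2 reads as a covariate, and 1 regulator was higher with log2 Xist, size factors or quantile normalization. The list's median was 0.16, and -0.37 with log2 reads. Ppargc1a, Nrf1 and Gabpa, regulators of nuclear genes for mitochondrial proteins, stood at 0.16, 0.46 and -0.20 and were not called. The 13 listed genes encoded in mitochondrial DNA were not found under their symbols among the deposited values and so were not analysed here.

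For comparison, 81 nuclear genes of the respiratory chain and ATP synthase had a median of -0.54 at 7 days with 1 called higher and 14 lower, and 82 cytosolic ribosomal protein genes had a median of -0.35 with 0 higher and 1 lower. With log2 reads on genes as a covariate these medians were -0.28 and 0.11, and with quantile normalization -0.26 and 0.08, so that the direction of the cytosolic ribosomal genes turned. The 14 lower respiratory chain genes became 1 among female livers, 1 with log2 reads, 4 with log2 Xist and 7 with quantile normalization. Their summed levels in controls were 6563 to 10717 and 7461 to 15106 eRPKM, against 2160 to 2469 for the members, and the part of depth in these differences was not tested. Under those settings the large subunit members had -0.18 and -0.19 and the small subunit members -0.13 and -0.19. The difference between the lists was not tested.

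**Figure D5:**
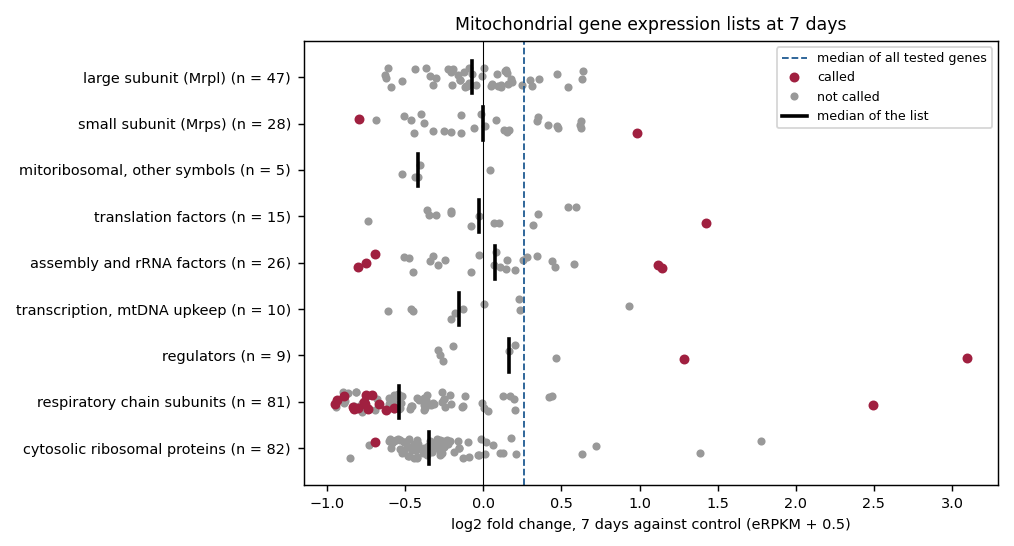
Log2 fold change at 7 days against control for the genes of each list (1 point a gene, called genes in red, the vertical bar the median of the list, the dashed line the median of all tested genes at 0.26). On the deposited scaling the Mrpl and Mrps genes centre near 0, between the respiratory chain subunits with a median of -0.54 and the median of all genes. The 5 mitoribosomal genes with other symbols have a median of -0.42.

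Markers of proliferation and of cell types also differed between the groups. All 5 proliferation markers rose at 7 days, with a summed level of 97.9 to 153 eRPKM at that time, 15.2 to 103 at 3 days and 7.4 to 20.6 without induction. Of the macrophage markers 3 of 5 rose, and the sum over them reached 651 to 742 at 7 days after 251 to 447 at 3 days and 194 to 393 without induction. Of 6 hepatocyte markers 2 fell, Ttr and Cyp2e1, and the sum over the list, which holds Alb and so may move with depth, was 944 to 1063 at 7 days, 1558 to 1930 at 3 days and 1271 to 3688 without induction. The median of that list at 7 days was -0.83, and -0.19 with log2 reads as a covariate, where 2 were again lower. In addition, 1 gene rose in each of the cholangiocyte, endothelial and T cell lists (5 markers each), none of 4 B cell markers was called, 1 of 6 stellate cell markers fell and 1 of 2 erythroid markers fell. The part of these markers in the members' levels was not tested.

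What the members share in the genome was read from GENCODE M1 on mm9. The 75 genes lie on 17 chromosomes, at most 10 on one (chromosome 11), and their annotated exons span 412 to 8079 bases with a median of 1729. For 24 of them exons overlap those of another gene, among them Mrpl13 with Mtbp, Mrpl21 with Ighmbp2, Mrpl48 with Rab6 and Mrps24 with Urgcp, so that their reads may in part belong to the neighbour. The 5 called genes have no such overlap. Annotated pseudogene copies exist for 3 members, Mrpl23, Mrpl48 and Mrps36, and how reads shared with them were counted is not given in the sources used here. A protein-coding gene started head to head within 1000 bases of 22 members (29.3%), against 11.3% of the tested protein-coding genes, with a median of 126 bases between the starts. Of the 20 such neighbours tested, 3 were called higher and 1 lower at 7 days, and their median was 0.10 beside -0.06 for the members at the same sites. Eme1, a nuclease gene beside Mrpl27, stood at 2.37 and Ncapd2, a condensin gene beside Mrpl51, at 2.70, while Mrpl27 stood at -0.19 and Mrpl51 at -0.12. The other called neighbours were Gga3 at 0.96, beside Mrps7 at -0.25, and Ndufb5, a complex I gene at -0.89, beside Mrpl47 at -0.61. Over the 20 pairs Spearman's rho of the 7-day values was 0.23, as a description of genes in the same libraries. The exons of Mrpl21, Mrpl27, Mrpl44, Mrpl47 and Mrps7 overlap those of these neighbours.

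Promoter sequences (RefSeq, GRCm38.p6, 250 bases before to 50 after the start) were found for 66 of the 75 genes. Short motifs were searched on both strands as exact letters. The comparison set was all 27025 genes with a promoter and was not limited to the tested genes, while every member was tested. CCGGAAG, the core bound by ETS factors such as the Gabpa product, was in 36.4% of the members and in 9.93% of all genes with a promoter, and TGCGCA, the core of the NRF1 site, was in 28.8% and 8.79%. AAGATGG, the core of the YY1 site, was in 19.7% and 7.28%. GGAATG, the TEAD core through which YAP acts, was in 12.1% of the members and 16.6% of all genes, and CACGTG, the E-box that Myc binds, in 7.58% and 8.09%. Matches can overlap, since the ETS core ends in the AAG with which the YY1 core begins, and CACGTG and TGCGCA share TG and CA at their ends. Members with the ETS core had a median 7-day value of 0.04 and those without it -0.07. For the NRF1 core the values were -0.01 and -0.09, and for the YY1 core 0.09 and -0.09. The order was the other way for the TEAD core, -0.13 with it and -0.01 without, and for the E-box, -0.09 and -0.01. These differences were not tested. A match describes the letters in the window and not binding.

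The 150 bases before the start are shown for the 2 genes called at 7 days and for 2 of those that fell between 3 and 7 days, with any of the 5 motifs in capitals. The pair called at 7 days carries none of them here, Mrpl32 carries TGCGCA 3 times, with copies that follow each other, and Mrps16 carries it once.
Mrps10 (chr17:47369047-47369196, plus strand): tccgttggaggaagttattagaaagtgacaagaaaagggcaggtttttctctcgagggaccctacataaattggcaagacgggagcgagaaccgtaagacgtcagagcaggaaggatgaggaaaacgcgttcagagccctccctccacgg
Mrps31 (chr8:22411190-22411339, plus strand): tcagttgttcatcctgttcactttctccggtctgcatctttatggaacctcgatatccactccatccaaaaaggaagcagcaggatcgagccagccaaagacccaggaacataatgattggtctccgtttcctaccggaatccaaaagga
Mrpl32 (chr13:14613038-14613187, minus strand): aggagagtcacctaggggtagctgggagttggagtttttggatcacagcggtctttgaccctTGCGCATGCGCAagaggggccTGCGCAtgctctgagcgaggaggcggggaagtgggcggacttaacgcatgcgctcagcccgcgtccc
Mrps16 (chr14:20393635-20393784, minus strand): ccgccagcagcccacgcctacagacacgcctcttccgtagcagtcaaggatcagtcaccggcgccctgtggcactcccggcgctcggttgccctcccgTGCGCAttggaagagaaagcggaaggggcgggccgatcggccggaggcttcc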

How the data were processed

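Bulk RNA-seq libraries of 11 whole livers (TruSeq RNA v2, a kit that does not mark strand) were analysed. Before deposit the authors masked bases of low quality and mapped the pairs with tophat 2.0.8 on mm9. They deposited RPKM values per gene and liver (eRPKM), and featureCounts 1.4.5-p1 stands in the submitters' processing notes. Handling of duplicate reads is not given in the sources used here. The table's 3 columns of the authors' own 7-day comparison were not used.

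Groups came from the labels. Values were tested as log2(eRPKM + 0.5) in R 4.3.3 with limma 3.58.1 (lmFit and trended eBayes, 3 groups in one fit), over the 14244 genes that reached 0.5 eRPKM in 3 or more of 11 libraries, with Benjamini-Hochberg adjustment over all of them. Fold changes on this scale understate those of low genes. Members were called at the study's thresholds, 0.01 for the adjusted p and 0.5 for the absolute log2 fold change. Single genes also got exact two-sided permutation tests, whose smallest p is 0.0286. All 177553 values above 0 were whole multiples of 1 read within 0.1 read (100%), which gave the depth of each library and the limma-voom alternative. The limma step was tested on simulated data. Alternatives were pseudocounts of 0.1 and 1, filters, size factors, quantile normalization, covariates (log2 Xist, log2 reads on genes, the label suffix MF), female livers only, the groups compared alone, robust eBayes, limma-voom, a replicate block and leaving out each liver. Positions are from GENCODE M1 (mm9). Other steps ran in Python 3.11.15 (pandas 2.3.3, numpy 2.4.6, scipy 1.17.1, and for figures matplotlib 3.10.9).

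The members and the gene lists were chosen with earlier results of these data known. Named members were, in each subunit, up to 5 called rises and falls at 7 days, the largest and smallest 3-day value, the 3 highest levels and the lowest level, and the Mrps18 genes, Mrps30 and Mrps36. Mrpl15 and Mrpl32, called only between 3 and 7 days, and the genes at an adjusted p under 0.05 were named after their values were seen. From the lists of translation factors, assembly and ribosomal RNA factors and regulators the genes called at 7 days were named. Tufm, Ppargc1a, Nrf1 and Gabpa were named though not called, and Tfam for its fall between 3 and 7 days. Called genes of the respiratory chain, cytosolic ribosomal and most marker lists were counted and not named.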

Additional observations from a re-analysis of the deposited data

Results flagged for a closer look

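Mrps30 was marked for a sample far from the others of its group. Control liver 4 had 12.7 eRPKM and the other controls 24.1, 24.1 and 23.8, and the gap took 0.975 of the group's range, above Dixon's critical value for 4 samples. This was 1 of 44 sets examined, and chance alone marks about 1 in 20. Control liver 4 is also the shallowest library, with 26 reads of Mrps30 at the lowest.

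For 4 members the difference from control was not the same at 3 and at 7 days, by the test of the step itself in the limma fit. The 7-day difference minus the 3-day difference was -0.69 for Mrpl15, -0.88 for Mrpl32, -0.68 for Mrps16 and -0.87 for Mrps31. The 3-day differences were 0.17, 0.26, 0.28 and 0.07 and the 7-day differences -0.52, -0.63, -0.40 and -0.80. Both comparisons share the 4 control livers.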

How the results depend on the processing

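At 3 days 0 members were called either way in each alternative at the study's thresholds. Between 0% and 0.379% of all tested genes were called there, so this count had little room to move. The number of members with a positive 3-day difference, 65 in the main fit, ran from 53 with quantile normalization to 69 without 3-day liver 1. The counts at 7 days are small and moved. The number higher than control (1) was 0 among female livers, with log2 Xist or log2 reads on genes as a covariate, with size factors, with no filter, with the compared groups alone and with quantile normalization, 3 with the suffix MF as a covariate, 7 with a limit of 0.05 on the adjusted p and none on the fold, and 0 to 1 when single livers were left out. Of all tested genes (14244 except with no filter), 1099 to 2858 were higher in the settings with 0 members. With the suffix MF 2926 were higher, and at an adjusted p under 0.05 27.9%. The number lower than control (1) was 0 among female livers, with log2 Xist, with log2 reads and with no filter, 4 with the suffix MF, 7 with size factors, 3 with the compared groups alone, 11 with quantile normalization, 5 at an adjusted p under 0.05, and 0 to 3 when single livers were left out. Of all tested genes, 4.25% were lower among female livers, 4.95% with log2 Xist, 4.05% with log2 reads and 3.61% with no filter. The shares were 6.94% with the suffix MF, 8.99% with size factors, 6.6% with the compared groups alone and 12.8% with quantile normalization. At an adjusted p under 0.05 the share was 9.98%, and with single livers left out 3.29% to 6.42%. Mrps10 lost its call without control liver 1, 2 or 4, 3-day liver 2 or 4, or any 7-day liver, and Mrps31 without control liver 1, 2 or 3, 3-day liver 2 or 4, or any 7-day liver, while their changes stayed between 0.81 and 1.21 and between -0.87 and -0.70. Against 3 days, the number lower (4) was 0 among female livers and with the compared groups alone, 1 with log2 Xist, 11 with size factors, 11 with quantile normalization, 2 with no filter, 15 at an adjusted p under 0.05, and 0 to 17 when single livers were left out. Of all tested genes, 2.82% were lower among female livers, 4.94% with the compared groups alone and 3.92% with log2 Xist. The shares were 8.32% with size factors, where 14.7% of members were lower, 10% with quantile normalization and 3.18% with no filter. At an adjusted p under 0.05 the share was 10.3%, and with single livers left out 2.56% to 7.47%. The number of members higher than at 3 days (0) was 1 with quantile normalization and 1 at an adjusted p under 0.05, beside 1436 and 3621 of 14244 tested genes. The 7-day median of the large subunit was -0.34 with size factors, -0.19 with quantile normalization and -0.11 to 0.05 when single livers were left out, the last without control liver 2. That of the small subunit was -0.27 with size factors. The 3-day median of the large subunit was 0.09 with quantile normalization. Some of these settings held fewer samples or tested more genes, and the causes of the lost calls were not tested.

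Values of uncalled genes near 0 changed sign at 7 days. With log2 reads on genes as a covariate they were 0.09 for Mrpl20, -0.43 for Mrpl21, -0.11 for Mrps18a, -0.09 for Mrps18b, -0.15 for Mrps25, -0.21 for Mrps30 and -0.39 for Mrps9. With quantile normalization they were 0.06 for Mrpl18, 0.02 for Mrpl20, -0.16 for Mrpl21, -0.36 for Mrps25, -0.14 for Mrps30 and -0.52 for Mrps9. With size factors they were -0.19 for Mrps18b, -0.12 for Mrps30 and -0.25 for Mrps9, and among female livers -0.03 for Mrpl21, -0.01 for Mrps18a, -0.07 for Mrps30 and -0.03 for Mrps9. Limma-voom gave -0.09 for Mrps9. With single livers left out, the 7-day values ran from -0.07 to 0.47 for Mrpl21, -0.25 to 0.06 for Mrpl48, -0.04 to 0.22 for Mrps18b, -0.07 to 0.23 for Mrps30 and -0.13 to 0.15 for Mrps9, and the 3-day value of Mrps9 from -0.26 to 0.02.

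Deviations of libraries with the same replicate number had correlations of -0.222 to 0.269. Differently numbered libraries were not examined beside them, so these values cannot settle whether the numbers pair the samples. With the replicate number as a block, 0 members were higher and 1 was lower at 7 days than in controls, 2 were lower than at 3 days, and Mrps9 stood at -0.07. Of all tested genes, 4.83% were lower than in controls and 3.88% lower than at 3 days in that fit.

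Depth limits what can be seen. With 8 reads of a member in the shallowest library, differences under about the width of the intervals given cannot be detected. Sex, depth and 7 days of induction move together here, since all 7-day livers are female and deep.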
